A study of Mus musculus with 8 samples.

Results

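The genes described here are 7 inhibitors of the cyclin-dependent kinases (CDKs): Cdkn1a and Cdkn1b of the Cip/Kip family, Cdkn2a, Cdkn2b, Cdkn2c and Cdkn2d of the Ink4 family, and Cdkn3. They were taken by gene symbol, as 7 of the 21364 genes and 10 of the 55681 probes measured. With a miR-127-3p mimic Cdkn1a rose about 5.20-fold, while Cdkn1b, Cdkn2a, Cdkn2c, Cdkn2d and Cdkn3 fell, and Cdkn2b did not pass the test. Across all features tested, 34.2% passed it.

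The cells were fibroblasts of the dermis, labelled as strain C57BL/6 and taken from the skin of newborn mice by enzymatic digestion. They were cultured in serum-containing medium and transfected either with a miR-127-3p mimic (samples 2, 4, 5 and 7) or with control oligonucleotides (samples 1, 3, 6 and 8). A mimic is a synthetic RNA that stands in for the mature microRNA, which a cell normally loads onto Argonaute proteins to repress messenger RNAs that pair with its seed. The labels give no dose or time after transfection. They do not say whether samples came from separate cultures or animals, so p-values measure only the spread between these samples. The title and source name of control 3 and control 6 say control, while their treatment field names both oligonucleotides. By its title, the study concerns senescence of myofibroblasts, a state of durable growth arrest in which CDK inhibitors are common markers.

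CDKs bound to cyclins drive cells through the division cycle. Ink4 proteins bind Cdk4 and Cdk6 and keep them from D-type cyclins, whereas Cip/Kip proteins bind whole cyclin-CDK complexes, above all those of Cdk2. Held in check, these kinases leave Rb and its relatives unphosphorylated, and E2F factors then stay silent. Cdkn3 is different in kind, a phosphatase that removes the activating phosphate from Cdk2 and Cdk1. Cdkn2a encodes 2 unrelated proteins from separate first exons: p16Ink4a, which inhibits Cdk4 and Cdk6, and p19Arf, which protects p53 from Mdm2.

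The mimic stands in for mature miR-127-3p, which RefSeq places at chr12:109592888-109592909 on the plus strand of GRCm38.p6. Its seed, bases 2 to 8, is in capitals.
miR-127-3p: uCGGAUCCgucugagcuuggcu

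Sequences around the starts of 3 of the genes follow, with only chosen motifs in capitals. Each is the RefSeq region of GRCm38.p6 from 250 bases before to 50 bases after a start, and the 7 genes have 10 such regions, since Cdkn1a, Cdkn2a and Cdkn2c have 2 starts each. The upstream Cdkn1a region is chr17:29090729-29091028 on the plus strand, with matches to the p53 decamer in capitals. The downstream Cdkn1a region is chr17:29093519-29093818 on the plus strand, 2790 bases on, with GC boxes (GGGCGG) in capitals.
Cdkn1a upstream start: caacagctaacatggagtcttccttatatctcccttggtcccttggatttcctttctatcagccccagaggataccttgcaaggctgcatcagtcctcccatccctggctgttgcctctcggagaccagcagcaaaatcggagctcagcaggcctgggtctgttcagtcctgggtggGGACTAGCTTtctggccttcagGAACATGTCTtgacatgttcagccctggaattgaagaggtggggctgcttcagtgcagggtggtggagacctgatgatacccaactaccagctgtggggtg
Cdkn1a downstream start: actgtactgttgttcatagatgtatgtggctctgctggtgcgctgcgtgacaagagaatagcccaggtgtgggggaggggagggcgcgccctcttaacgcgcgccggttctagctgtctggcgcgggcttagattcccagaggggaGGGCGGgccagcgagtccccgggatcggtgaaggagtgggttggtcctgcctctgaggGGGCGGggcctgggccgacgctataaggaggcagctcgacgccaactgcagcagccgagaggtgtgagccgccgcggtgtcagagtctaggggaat

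The upstream Cdkn2a region is chr4:89294570-89294869 on the minus strand, where the first exon of p19Arf begins. Its match to the E2F motif, here TTTCCCGC, is in capitals. The downstream one is chr4:89282143-89282442 on the minus strand, 12427 bases on, where the first exon of p16Ink4a begins, with its GC box in capitals. The Cdkn3 region is chr14:46760291-46760590 on the plus strand, with CCAAT boxes (CCAAT, or ATTGG on the other strand) and the cell cycle element CHR (TTTGAA, here TTCAAA) in capitals.
Cdkn2a upstream start: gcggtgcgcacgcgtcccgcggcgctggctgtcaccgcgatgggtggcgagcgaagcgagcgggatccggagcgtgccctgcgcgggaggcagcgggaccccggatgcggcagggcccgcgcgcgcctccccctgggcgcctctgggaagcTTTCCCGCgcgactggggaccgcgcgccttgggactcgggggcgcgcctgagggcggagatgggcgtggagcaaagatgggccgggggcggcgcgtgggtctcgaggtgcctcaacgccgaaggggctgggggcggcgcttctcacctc
Cdkn2a downstream start: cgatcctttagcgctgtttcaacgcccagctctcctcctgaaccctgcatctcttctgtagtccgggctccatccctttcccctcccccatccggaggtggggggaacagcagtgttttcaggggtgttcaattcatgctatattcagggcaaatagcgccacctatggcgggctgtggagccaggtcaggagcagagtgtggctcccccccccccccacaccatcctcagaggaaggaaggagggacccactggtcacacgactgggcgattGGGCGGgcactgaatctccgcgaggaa
Cdkn3 start: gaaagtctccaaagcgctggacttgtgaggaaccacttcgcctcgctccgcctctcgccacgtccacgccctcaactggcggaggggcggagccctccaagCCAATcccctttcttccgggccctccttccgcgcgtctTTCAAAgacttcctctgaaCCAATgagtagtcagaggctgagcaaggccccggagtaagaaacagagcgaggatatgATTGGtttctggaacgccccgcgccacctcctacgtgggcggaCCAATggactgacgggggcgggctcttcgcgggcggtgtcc

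Of 32851 start regions of 300 bases in the table, 8.36% held a p53 decamer on either strand and 0.359% held 2 or more, as the upstream Cdkn1a region does, at -73 and -51 relative to the start. The E2F motif was found in 2.26%, the GC box in 35.7%, the CCAAT box in 37.4% and the CHR in 17.9%. The Cdkn3 region held 4 CCAAT boxes, 1 CHR and, not in capitals, 4 GC boxes. The upstream Cdkn2a region held 3 GC boxes, also not in capitals. The downstream Cdkn2a region held 1 GC box and 1 unmarked CCAAT box. A match of letters is a description and not a binding site, and the table does not pair a start with the transcript that a probe reads.

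Levels below are log2 processed intensities relative to the 75th percentile of the same array, so that 0 is that percentile. They compare arrays, not different probes. Every fold change is miR-127-3p minus control on the log2 scale, with limma's SE and an adjusted p over all features tested.

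Of the Cip/Kip genes, Cdkn1a encodes p21, which is known as the main p53-induced inhibitor of Cdk2. Its brighter probe A_51_P363947, printed in 10 spots on each array, had levels of 6.51, 6.83, 6.31 and 6.64 in the miR-127-3p samples, against 4.14, 4.60, 4.23 and 3.82 in the control samples. The groups did not overlap, and the lowest miR-127-3p sample lay far above the highest control. Groups that did not overlap were common, at 34.2% of all features tested. The log2 fold change was 2.38 (SE 0.17, 95% interval 1.98 to 2.78, adjusted p = 4.04e-05), the 63rd largest in size of 17093 features tested. Spots of this probe varied little within an array, with coefficients of variation of 1.95% to 3.58%.

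The other Cdkn1a probe, A_55_P1986282, is listed under a different transcript of the gene (NM_001111099, against NM_007669 for the brighter one). Its levels were 2.96, 3.22, 2.62 and 3.02 in the miR-127-3p samples, against -1.04, -0.04, -0.53 and -1.26 in the control samples. It was 12.8-fold higher (log2 fold change 3.67, SE 0.26, adjusted p = 3.74e-05 over the 21964 probes tested, of which 33.8% were called). Relative to the brighter probe, it stood at -3.62 ± 0.06 with miR-127-3p and -4.91 ± 0.26 in controls (SD, n = 4 each), a difference of 1.30. That comparison was added after the values were seen, and reached the smallest p that the exact permutation test allows (0.0286, or 0.0572 adjusted over the 2 genes with 2 tested probes), which does not pass. With normexp background correction the probes rose by 2.32 and 2.97.

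**Figure D1:**
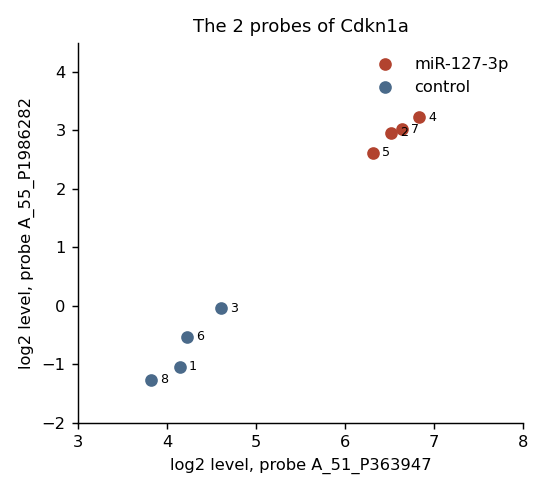
Level of the 2 Cdkn1a probes on each array, as log2 relative to the 75th percentile (x axis, A_51_P363947; y axis, A_55_P1986282), with sample numbers beside the points. The 4 miR-127-3p samples sit together at the top right, at or above 6.31 and 2.62, and all 4 control samples sit at or below 4.60 and -0.04.

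Cdkn1b encodes p27, which holds Cdk2 inactive in resting cells. Its level was 1.73, 1.37, 1.90 and 1.34 in the miR-127-3p samples, against 2.69, 2.20, 2.11 and 2.32 in the control samples. The groups did not overlap, though the highest miR-127-3p sample lay close under the lowest control. Cdkn1b fell by 0.74 on the log2 scale (SE 0.17, 95% interval -1.13 to -0.36, adjusted p = 0.0105). Within either row of the slide alone, with 2 arrays per group, it was not called (-0.90, adjusted p = 0.0785, and -0.59, adjusted p = 0.179).

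The ratio of Cdkn1a to Cdkn1b within an array moved by 3.12 on the log2 scale, being 4.99 ± 0.48 with miR-127-3p and 1.87 ± 0.47 in controls (SD, n = 4 each). It was higher in all 4 miR-127-3p samples than in any control. The exact permutation test (two-sided) gave p = 0.0286, the smallest that 70 assignments allow, also 0.0286 adjusted over 3 pairs. Since Cdkn1a was higher and Cdkn1b lower in every miR-127-3p sample, that outcome was fixed and adds no support to the single-gene results. With normexp correction the difference was 2.96 with the same exact p, which the adjustment over the pairs took to 0.0856. The exact test adjusted over the pairs did not pass without control 1 (2.98, adjusted p = 0.0571) or without control 8 (3.00, adjusted p = 0.0857). Without miR-127-3p 2 it was 3.19, with an adjusted p of 0.0286 as with all arrays. The adjusted p of a pair also depends on the exact p of the other pairs. The remaining Cip/Kip gene, Cdkn1c, which encodes p57, was not among the 7 and did not pass the test (-0.22, SE 0.25, 95% interval -0.78 to 0.34, adjusted p = 0.518). Its 4 control samples, between -0.01 and 1.21, enclosed all miR-127-3p samples, between 0.20 and 0.64.

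**Figure D2:**
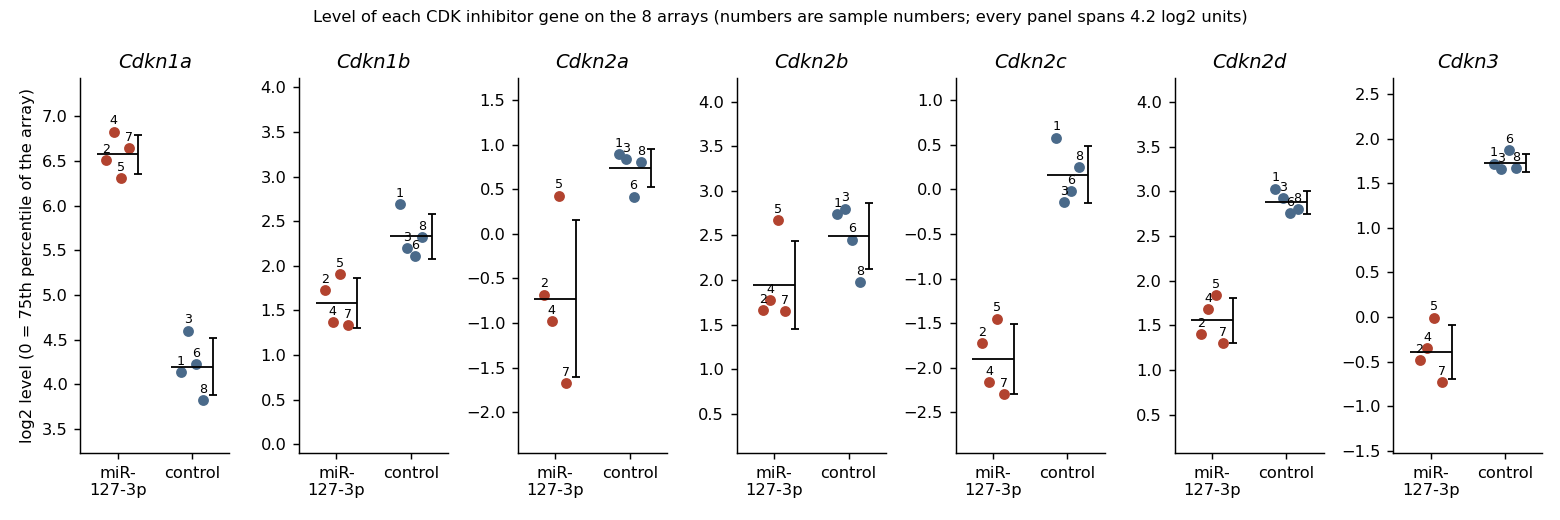
Level of each CDK inhibitor gene on the 8 arrays (y axis, log2 relative to the array's 75th percentile), with sample numbers, the mean (long line) and SD (bar) of each group of 4. Cdkn1a is higher in every miR-127-3p sample, Cdkn1b, Cdkn2c, Cdkn2d and Cdkn3 are lower in every one, and in Cdkn2a and Cdkn2b miR-127-3p 5 lies among the controls. Of all features tested, 34.2% had groups that did not overlap.

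In the Ink4 family 3 of 4 genes fell and none rose, with a median log2 fold change of -1.39, beside 0.02 for all features, of which 18.3% fell and 15.9% rose. Cdkn2c encodes p18, an inhibitor of Cdk4 and Cdk6. Its level was -1.72, -2.16, -1.45 and -2.29 in the miR-127-3p samples, against 0.58, -0.14, -0.02 and 0.25 in the control samples. The groups stood well apart, and Cdkn2c fell by 2.07 on the log2 scale (SE 0.22, adjusted p = 0.000246). Its processed intensities in miR-127-3p samples were dim, between 35.0 and 75.4, and with normexp, which draws dim signals together, the log2 fold change was -1.29.

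Cdkn2d encodes p19Ink4d, a different protein from p19Arf. Its level was 1.40, 1.68, 1.84 and 1.30 in the miR-127-3p samples, against 3.03, 2.93, 2.75 and 2.80 in the control samples. Every miR-127-3p sample lay below every control, and Cdkn2d fell by 1.32 (SE 0.13, adjusted p = 0.000182). The ratio of Cdkn2c to Cdkn2d was -3.46 ± 0.32 with miR-127-3p and -2.71 ± 0.28 in controls, a difference of -0.75 (exact permutation test, adjusted p = 0.0286 over 3 pairs). With normexp that difference was -0.081 (exact p = 0.486). Without any single array other than miR-127-3p 2 or control 3 the exact test did not pass either (-0.81 to -0.62, adjusted p = 0.0571 to 0.0857).

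Cdkn2a, the p16Ink4a and p19Arf gene, had 2 probes, both listed under NM_009877, known as the RefSeq entry of the p19Arf transcript. The p16Ink4a transcript shares the downstream exons with it, and the files hold no probe sequence, so whether the probes read p19Arf alone or both transcripts cannot be told. The brighter one, A_55_P2008437, had levels of -0.68, -0.97, 0.43 and -1.67 in the miR-127-3p samples, against 0.89, 0.83, 0.42 and 0.81 in the control samples. Samples miR-127-3p 2, 4 and 7 were below all controls, while miR-127-3p 5 lay just above control 6. The miR-127-3p samples were also more spread (SD 0.87) than the controls (SD 0.22).

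Cdkn2a fell by 1.46 on the log2 scale (SE 0.38, 95% interval -2.34 to -0.59, adjusted p = 0.0187), but the exact permutation test on its own gave p = 0.0571. The call was lost without miR-127-3p 4 (-1.38, adjusted p = 0.0530), without control 1 (-1.41, adjusted p = 0.0511), and without control 3 and control 6 together (-1.57, adjusted p = 0.0621). With normexp it was -0.90 and still called. The dimmer probe, A_55_P2008438, was well above background on none of the 8 arrays and was not tested.

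Cdkn2b encodes p15, an inhibitor known for its induction by TGF-beta, and lies next to Cdkn2a on chromosome 4. Its brighter probe, A_55_P1988183, had levels of 1.67, 1.77, 2.67 and 1.66 in the miR-127-3p samples, against 2.74, 2.80, 2.45 and 1.98 in the control samples. Here miR-127-3p 5 lay among the controls and the other 3 lay below all of them. The log2 fold change of -0.55 did not pass (SE 0.27, 95% interval -1.16 to 0.06, adjusted p = 0.143). Without miR-127-3p 5 it was -0.79 and was called (adjusted p = 0.0175). In slide row 1 alone it was -1.05 (adjusted p = 0.0206), and in row 2 alone, which holds miR-127-3p 5, it was -0.05 (adjusted p = 0.938).

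The other Cdkn2b probe, A_55_P1979526, gave -0.35, -0.11, 0.57 and -0.15 in the miR-127-3p samples, against 0.58, 0.85, 0.49 and 0.04 in the control samples. It had the same pattern and a change of -0.50 (SE 0.23, adjusted p = 0.124 over all probes). The neighbours Cdkn2a and Cdkn2b differed in size of change: their ratio was -2.67 ± 0.49 with miR-127-3p and -1.76 ± 0.40 in controls, a difference of -0.91 (exact permutation test, adjusted p = 0.0286 over 3 pairs). With normexp it was -0.38 and did not pass (adjusted p = 0.0856), nor did it without control 1 (-0.94) or control 3 (-0.98), each with an exact adjusted p of 0.0571, or without control 8 (-0.72, exact adjusted p = 0.0857). It was -0.64 in slide row 1 and -1.18 in row 2.

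Cdkn3, the phosphatase of Cdk2 and Cdk1, is known to be transcribed mostly in dividing cells, in G2 and mitosis. Its level was -0.48, -0.35, -0.01 and -0.73 in the miR-127-3p samples, against 1.72, 1.66, 1.87 and 1.67 in the control samples. The controls were tightly grouped and far above every miR-127-3p sample. Cdkn3 fell by 2.12 (SE 0.15, 95% interval -2.45 to -1.78, adjusted p = 3.18e-05), which is 4.34-fold lower, and by 1.56 with normexp.

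**Figure D3:**
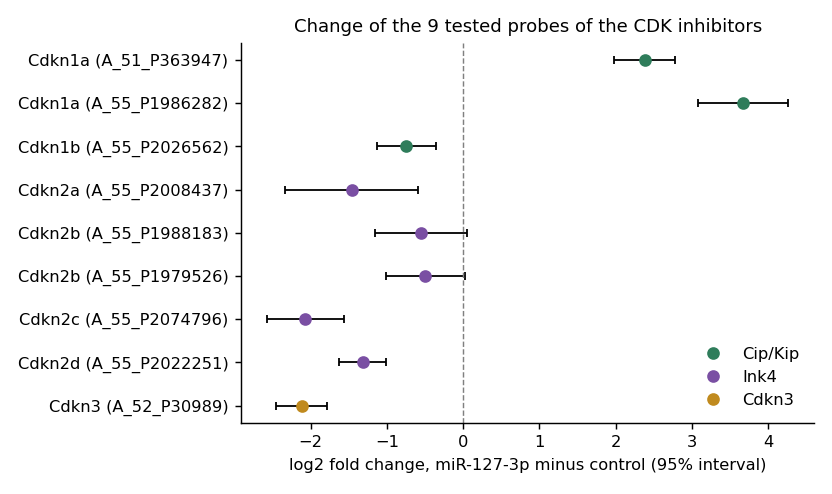
Log2 fold change of the 9 tested probes of the CDK inhibitors, miR-127-3p minus control (x axis), with 95% intervals from limma, coloured by family. Both Cdkn1a probes lie to the right of 0, both Cdkn2b intervals reach 0, and the other 5 probes lie wholly to the left.

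Sample by sample, miR-127-3p 5 was nearest the control mean of the 4 miR-127-3p samples for all 7 genes, the least raised for Cdkn1a and the highest of the 4 for the other 6. For Cdkn2b it stood 0.18 above the control mean. Sample miR-127-3p 7 was the lowest for those 6. The same order held at the ends for 9 tested genes of G2 and mitosis, whose median stood 1.86 below the control mean in miR-127-3p 5 and 2.29 below it in miR-127-3p 7, the range of the 4 samples. The macrophage and leukocyte markers also stood nearest the controls in miR-127-3p 5, with a median of 0.61 above the control mean, against 1.33 to 1.54 in the other 3. What sets miR-127-3p 5 apart was not tested.

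**Figure D4:**
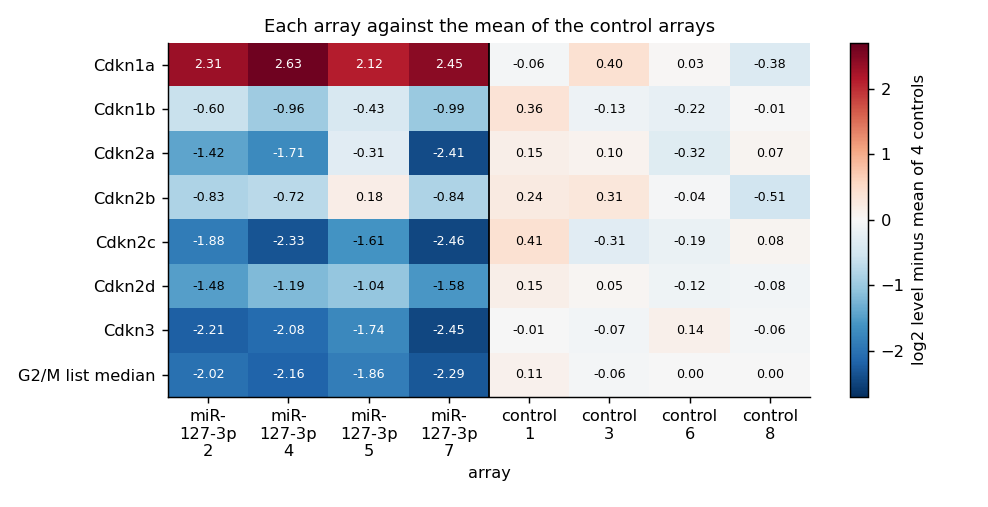
Level of each gene on each array minus the mean of the 4 control arrays (log2, colour and printed values), with the median of 9 tested G2/M genes in the bottom row. Red is above and blue below the control mean, and the column of miR-127-3p 5 is the palest of the 4 miR-127-3p columns.

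The kinases and cyclins that these inhibitors bind were 11 genes, of which 9 were tested, 1 rose and 5 fell, with a median log2 fold change of -0.59. Of all features 15.9% rose and 18.3% fell, the shares to set beside this list and the later ones. The largest falls were the S-phase and mitotic cyclin gene Ccna2 (-2.37, adjusted p = 1.29e-05), Cdk1 (-1.82, adjusted p = 8.51e-05) and the replication clamp Pcna, which p21 also binds (-1.15, adjusted p = 0.00012). Ccne1 (-1.08, adjusted p = 0.000282) and Cdk2 (-0.59, adjusted p = 0.0129) fell as well. The target of the Ink4 proteins, Cdk4, had -0.18 (adjusted p = 0.143), and Cdk6 was above background on no array, nor was the cyclin gene Ccne2. Of the D-type cyclins, which partner Cdk4 and Cdk6, Ccnd3 rose (0.38, adjusted p = 0.0207), and Ccnd1 (-0.14, adjusted p = 0.514) and Ccnd2 (adjusted p = 0.997) did not pass. In 8 of 23 alternative settings no gene of this list was called higher.

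Downstream, pocket proteins and E2F factors were 11 genes, all tested, of which 6 fell and none rose (median -0.44), beside 18.3% and 15.9% of all features. The largest falls were E2f8 (-2.25, adjusted p = 3.27e-05) and E2f2 (-1.81, adjusted p = 0.000197). E2f7, like E2f8 a repressor of E2F targets, fell by 1.57 (adjusted p = 7.78e-05), although its other probe gave 0.19, and the Rb relative Rbl1 fell by 1.47 (adjusted p = 0.000144). The G2/M genes set beside Cdkn3 were 11, of which 9 were tested and all 9 fell, beside 18.3% of all features, with a median of -2.09. They included the mitotic kinase partner Ccnb1 (-2.29), the kinase Plk1 (-2.15), the checkpoint kinase Bub1 (-2.31) and the survivin gene Birc5 (-2.20), each with an adjusted p of 1.28e-05.

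Upstream of Cdkn1a, p53 and its controllers were 7 genes, of which 6 were tested. Mdm2, the ligase that degrades p53 and itself a p53 target, rose (1.14, SE 0.11, adjusted p = 0.000125). Trp53, the p53 gene, had -0.21 and did not pass (adjusted p = 0.422), and Mdm4, the partner of Mdm2, fell (-0.63, adjusted p = 0.00302), with -0.56 for its other probe, which was not called. The p19Arf partner Npm1 fell (-0.42, adjusted p = 0.00351), as did the p53 and Mdm2 deubiquitinase Usp7 (-0.39, adjusted p = 0.012), whose other probe gave -0.05 and was not called, while Dmtf1, an activator of p19Arf, had -0.14 (adjusted p = 0.503). In each of 23 alternative settings 1 gene of this list was called higher, and in 2 of them none was called lower.

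Genes known to respond to p53 were 12 beside Cdkn1a, of which 11 were tested, 9 rose and none fell (median 0.87). Among all features 15.9% rose and 18.3% fell. Trp53inp1, a stress protein gene, rose by 1.64 (adjusted p = 3.18e-05), the DNA polymerase gene Polk by 0.87 (adjusted p = 0.000192), the Akt inhibitor Phlda3 by 1.20 (adjusted p = 0.000301) and Btg2, a gene that restrains proliferation, by 1.90 (adjusted p = 0.00082). The 2 that were not called were Bax, which promotes cell death, with -0.05 (adjusted p = 0.893), and Sesn1, a stress-induced gene, with -0.31 (adjusted p = 0.0683). Over the alternative settings between 4 and 9 of these genes were called higher and 0 to 1 lower, the 1 with array weights and without control 3.

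For Cdkn1b, whose protein is marked for breakdown by the ligase of Skp2 and Cks1b, the list of turnover and transcription held 10 genes. Of these 8 were tested, 4 fell and none rose, beside 18.3% and 15.9% of all features. Cks1b fell by 1.15 (adjusted p = 3.34e-05) and Skp2 by 0.85 (adjusted p = 0.000529). The further ligase subunits Cul1 and Skp1 fell by 0.22 each (adjusted p = 0.0342 and 0.0486), and the subunit Rbx1 had -0.01 (adjusted p = 0.962). Foxo1, a transcription factor that activates Cdkn1b, had -0.11 (adjusted p = 0.45), and Foxo3 and Foxo4 were above background on no array. The ligase gene Rnf123 (0.14, adjusted p = 0.254) and the kinase gene Akt1 (0.06, adjusted p = 0.672) did not pass. Between 2 and 4 genes of the list were called lower over the alternative settings.

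Regulators of the Cdkn2a and Cdkn2b locus were 21 genes, of which 17 were tested, 2 rose and 5 fell, with a median of -0.12. The share called is near that of all features. The Polycomb methyltransferase Ezh2, a repressor of the locus, fell by 1.36 (adjusted p = 6.03e-05), and so did its partner Suz12 (-0.56, adjusted p = 0.00918) and the Polycomb repressor Bmi1 (-0.51, adjusted p = 0.00683). Smad4 (-0.38, adjusted p = 0.0278) and Smad2 (-0.32, adjusted p = 0.0362) also fell. The repressors of the locus Id1 (0.44, adjusted p = 0.00918) and Tbx3 (0.54, adjusted p = 0.0092) rose. Over the alternative settings 1 to 6 genes of the list were called lower and 0 to 2 higher.

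**Figure D5:**
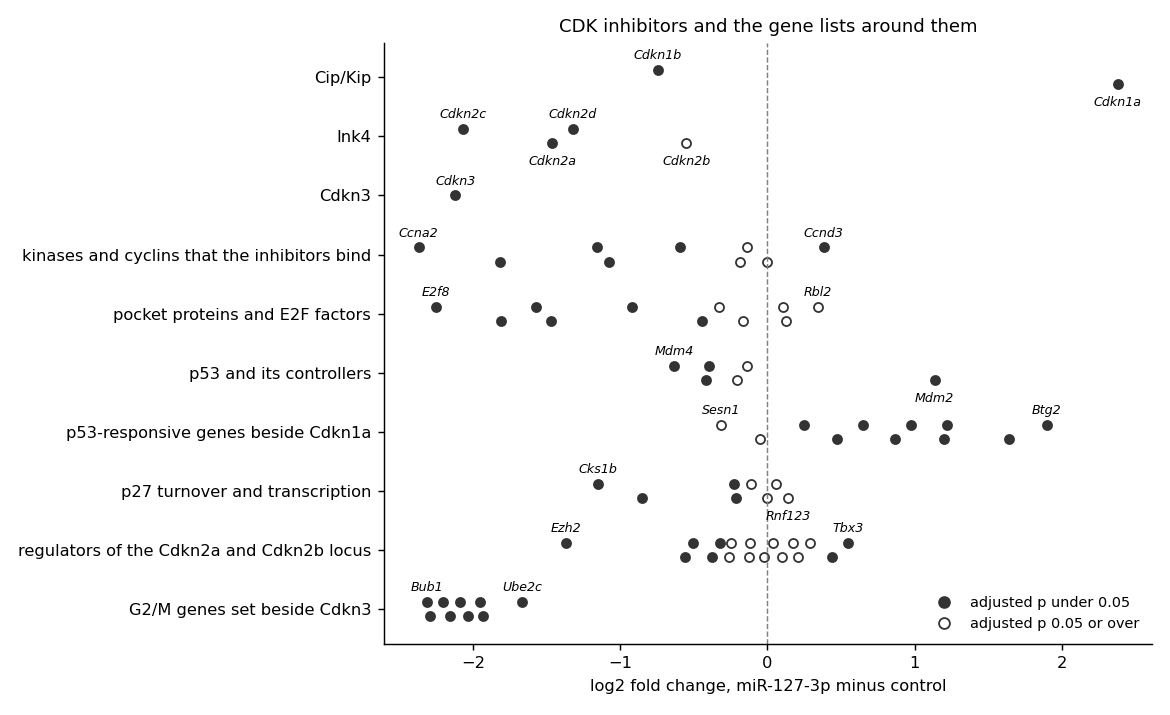
Log2 fold change, miR-127-3p minus control (x axis), of the 7 CDK inhibitors and each tested gene of the lists around them (rows). Points are filled where adjusted p is under 0.05, and Cdkn1c and Mtap are not shown. All 9 tested G2/M genes lie left of 0 beside Cdkn3, and 9 of 11 tested p53-responsive genes lie right of 0, as Cdkn1a does.

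The genes whose profiles over the 8 arrays were most like each inhibitor were found by the root mean square difference of profiles centred on their own means, among genes with a symbol. For Cdkn1a they were the calcium-binding protein gene S100b (0.138 log2 units), the DNA repair gene Mgmt (0.166) and the semaphorin gene Sema4f (0.203). For Cdkn3 all 3 belong to mitosis: the centromere histone Cenpa (0.0912), the cyclin Ccnb2 (0.0986) and the kinesin Kif20a (0.117). Those of Cdkn2c were mitotic as well, namely Fam83d (0.136), Ect2 (0.139) and Cenpi (0.149).

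The other members had other neighbours. Cdkn1b was most like Cmc4 (0.0762), Sall2 (0.0829) and Naa40 (0.0864), and Cdkn2d was most like the splicing factor gene Mbnl3 (0.108), Cep68 (0.128) and Snrnp25 (0.128). Cdkn2b was nearest to the actin-binding protein gene Nexn (0.120), 9930012K11Rik (0.155) and Cdk18 (0.156). The nearest to Cdkn2a, the nucleoside kinase gene Dck (0.291), Kbtbd6 (0.318) and Pms1 (0.320), were less close than those of any other member. Likeness over 8 arrays of 2 groups is a description.

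Each array had 20767 to 23474 probes above background, and the smallest exact p for a difference between the groups over 5 quality measures was 0.314. All 10 fibroblast markers were tested, with 1 higher (Dcn, 1.18) and 2 lower (Col3a1, -1.07, and Pdgfra, -0.97). Their summed level was 1453 to 1531 with miR-127-3p and 1371 to 1592 in controls, in multiples of the 75th percentile. Of 10 macrophage and leukocyte markers 9 were tested and 8 rose, beside 15.9% of all features. Their summed level was 63.9 to 74.9 with miR-127-3p and 36.1 to 45.4 in controls. Both sums follow their brightest probes, which include Col1a2 (log2 fold change 0.06) and Itgam (0.51). The leukocyte marker Ptprc was above background on no array. The part of these markers in the results above was not tested, and in bulk RNA fewer cells of a type and less RNA per cell cannot be told apart.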

How the data were processed

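Per the file headers, the authors extracted the intensity of each spot with Feature Extraction 11.5.1.1 from 1-colour arrays that all lay on 1 slide and were scanned once. In the deposited log2 value table, a single constant separates each column from that array's log2 processed intensity, so it is relative to each array's 75th percentile and not centred by gene. The submitters' processing notes name GeneSpring 14.9.1. The deposited flags (well above background, saturated, outlier) were used as given.

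From the scanner files, outlier and control spots were left out, spots of a probe averaged, and the 75th percentile subtracted. Accessions were matched to RefSeq symbols of GRCm38.p6, used for names alone, for 28325 of 55681 probes. Probes well above background on at least 4 of 8 arrays were tested (21964 probes, 17093 features), and the brightest stood for its gene. The test of each feature was limma's (version 3.58.1, R 4.3.3; lmFit, eBayes, two-sided, Benjamini-Hochberg, threshold 0.05). Ratios were compared with exact permutation tests over arrays. Only their number limits the precision. Normexp (offset 50) used the median signal, since the files hold no mean signal. The fit was tested on simulated data.

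The members and lists were chosen with earlier results of these data known. Named are every member probe, Cdkn1c, all tested genes of lists of up to 10, otherwise the 4 with the smallest adjusted p and any that explain a count, and the 3 genes most like each member. No set test was run.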

Additional observations from a re-analysis of the deposited data

Results flagged for a closer look

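Among 20 sets of 4 values checked (each member probe in each group), 2 held a sample far from the other 3, where chance gives about 1 in 20. For the brighter Cdkn2b probe, A_55_P1988183, miR-127-3p 5 stood at 2.67, and the nearest of the other miR-127-3p samples at 1.77, a gap of 0.883 of the group's range. For the dimmer Cdkn2a probe, A_55_P2008438, control 1 stood at -3.23 and the nearest control at -2.89 (a gap of 0.835 of the range), with all 8 arrays not well above background.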

How the results depend on the processing

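Over 23 alternative settings each of the 7 genes kept its direction. Cdkn1a (2.25 to 3.03), Cdkn2c (-2.32 to -1.29), Cdkn2d (-1.44 to -1.20) and Cdkn3 (-2.25 to -1.56) were called in all 23, Cdkn1b in 21, Cdkn2a in 18 and Cdkn2b in 2. With normexp the ratio differences, by exact permutation test, were 2.96 (Cdkn1a to Cdkn1b, adjusted p = 0.0856), -0.38 (Cdkn2a to Cdkn2b, adjusted p = 0.0856) and -0.081 (Cdkn2c to Cdkn2d, exact p = 0.486). With no filter on dim probes Cdkn2a kept -1.46 (adjusted p = 0.0543), and 1644 features were called higher and 2013 lower. The exact permutation test gave Cdkn2a, at -1.46, p = 0.0571. With slide column as a block 1780 features were called higher. In slide row 1 alone Cdkn1b was -0.90, Cdkn2b -1.05 (adjusted p = 0.0206), and 768 features were higher and 991 lower. In row 2 alone Cdkn1b was -0.59, Cdkn2a -1.23 (adjusted p = 0.316), Cdkn2b -0.05, 3 of the 7 genes were called lower, and 685 features were higher and 926 lower. Fewer arrays lower the counts within a row. Without control 3 and control 6 Cdkn2a was -1.57.

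Leaving out each array in turn gave Cdkn2a -1.85 to -1.15, Cdkn2b -0.79 to -0.45, 4 to 6 inhibitors called lower, 1864 to 2899 features higher and 2456 to 3073 lower. The ratio differences were then 2.97 to 3.32, -1.05 to -0.69 and -0.87 to -0.62, with exact adjusted p of 0.0286 to 0.0857. Fewer assignments remain with an array left out, but the smallest exact adjusted p was still 0.0286, as with all arrays. Each ratio difference reached it without miR-127-3p 2. The causes of the changes with an array left out were not tested. No paired analysis was possible because the groups share no replicate number, and slide column, which holds 1 array of each group, was fitted as a block of position. Within slide rows 1 and 2 the ratio differences, given with no test, were 3.20 and 3.05, -0.64 and -1.18, and -0.72 and -0.78. The ratios were not run with array weights or blocks, or without control 3 and control 6.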

Other observations

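Of the genes beside the Cdkn2a and Cdkn2b locus, Mtap, which salvages methionine, fell (-0.36, SE 0.09, adjusted p = 0.0133), and Dmrta1 was above background on no array. Of the 10 start regions of the 7 genes, 8 held a GC box, 5 a CCAAT box, 2 a CHR, 2 a p53 decamer and 1 the E2F motif, with the second p53 decamer region being that of Cdkn2d.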
